A study of Homo sapiens with 16 samples.

Results

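The genes described here are the enzymes and enzyme subunits that split glucose to lactate and that build and break glycogen: 31 genes listed by symbol, of 43388 genes with a deposited value. All 31 averaged 1 TPM or more and were therefore among the 16122 genes compared. TPM, transcripts per 1000000, is a read count divided by gene length and scaled so that each library sums to 1000000, so levels of different genes can be set side by side. The RNA came from hPSC-CMs made from the human iPSC line WTC11 (induced pluripotent stem cells), differentiated as a single batch of cardiac progenitors that had been frozen and thawed. There were 4 wells in each of 4 groups: Day 16 in RPMI/B27, and Day 30 after the last 2 weeks in RPMI/B27, in RPMI_glcM/B27 or in HPLM/B27. RPMI/B27 is standard RPMI with its RPMI-defined glucose and the B27 supplement, RPMI_glcM/B27 is the same medium with glucose at 5 mM, and HPLM/B27 is a human plasma-like medium, likewise at 5 mM glucose, that also differs from RPMI in many other metabolites and ions. All groups received B27, and all shared RPMI/B27 up to Day 16. Since the wells come from 1 line and 1 differentiation, p-values measure the spread between wells.

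Glycolysis phosphorylates glucose, splits it into triose phosphates and oxidises these to pyruvate, which lactate dehydrogenase can reduce to lactate, while glycogen stores glucose units that phosphorylase releases when demand rises. Fetal heart muscle relies strongly on glycolysis and holds much glycogen, and the adult heart takes most of its energy from fatty acids. Many of the steps are shared out among paralogs with a favoured tissue, such as the muscle, liver and brain forms of phosphorylase or the ubiquitous, neuronal and muscle enolases. Hypoxia-inducible factors bind a core of ACGTG or GCGTG, and the E-box CACGTG is bound by factors such as MYC and USF, and both kinds of element are well known at glycolytic genes.

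The promoters of the lactate dehydrogenases, the enolases and the liver-form phosphorylase are shown because the order of the media differed between members of these families. Each line gives the 250 bases before a start site in the RefSeq promoter table for GRCh38.p14, read 5′ to 3′ on the gene's strand, with capitals where either core or the E-box is found on either strand.
LDHA, chr11:18394313-18394562, strand +: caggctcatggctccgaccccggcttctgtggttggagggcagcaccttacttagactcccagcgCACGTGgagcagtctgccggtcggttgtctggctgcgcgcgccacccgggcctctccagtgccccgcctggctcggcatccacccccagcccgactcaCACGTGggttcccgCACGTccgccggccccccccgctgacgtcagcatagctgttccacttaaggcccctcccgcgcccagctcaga
LDHB, chr12:21657843-21658092, strand −: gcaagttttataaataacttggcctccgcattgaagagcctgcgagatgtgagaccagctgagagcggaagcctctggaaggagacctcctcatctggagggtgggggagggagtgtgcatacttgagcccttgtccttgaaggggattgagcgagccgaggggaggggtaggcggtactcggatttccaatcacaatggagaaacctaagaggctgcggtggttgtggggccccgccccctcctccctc
ENO1, chr1:8878687-8878936, strand −: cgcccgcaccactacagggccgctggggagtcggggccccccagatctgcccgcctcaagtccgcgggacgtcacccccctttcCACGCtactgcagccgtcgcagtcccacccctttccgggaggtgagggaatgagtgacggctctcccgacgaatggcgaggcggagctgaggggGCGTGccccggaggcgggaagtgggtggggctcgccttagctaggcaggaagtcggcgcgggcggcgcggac
ENO2, chr12:6914330-6914579, strand +: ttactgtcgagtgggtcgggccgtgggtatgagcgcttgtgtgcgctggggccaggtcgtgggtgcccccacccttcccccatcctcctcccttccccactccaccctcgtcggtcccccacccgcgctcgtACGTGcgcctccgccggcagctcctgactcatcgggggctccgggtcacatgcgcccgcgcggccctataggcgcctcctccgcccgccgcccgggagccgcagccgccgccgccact
ENO3, chr17:4950302-4950551, strand +: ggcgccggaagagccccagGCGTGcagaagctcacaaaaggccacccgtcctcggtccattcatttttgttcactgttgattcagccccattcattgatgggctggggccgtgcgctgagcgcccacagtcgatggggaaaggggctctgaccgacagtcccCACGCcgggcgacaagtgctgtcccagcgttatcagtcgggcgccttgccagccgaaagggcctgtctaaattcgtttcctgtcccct
PYGL, chr14:50944484-50944733, strand −: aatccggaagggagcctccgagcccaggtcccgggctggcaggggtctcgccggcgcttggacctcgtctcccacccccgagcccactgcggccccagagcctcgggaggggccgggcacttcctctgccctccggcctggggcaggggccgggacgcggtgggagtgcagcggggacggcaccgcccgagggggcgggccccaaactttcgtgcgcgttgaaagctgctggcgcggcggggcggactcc
The LDHA window held 2 copies of CACGTG, which reads as ACGTG on both strands, and a further ACGTG on the reverse strand. The LDHB and PYGL windows held no match. The ENO1 window held 2 copies of GCGTG and the ENO2 window 1 of ACGTG. The ENO3 window, which precedes a downstream start inside the annotated gene, held 2 of GCGTG. Of the 31 genes 30 had an entry, with 55 promoters (PYGM had none), searched over 250 bases before to 50 after the start on both strands. The core ACGTG was found in 21 of these (38.2%), the core GCGTG in 27 (49.1%) and the E-box in 7 (12.7%), against 21.4%, 36.5% and 7.26% of all 35116 promoters in the table. These matches are a description of the letters alone.

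Library composition bears on every comparison below. Each library held 7744768 to 16183655 recovered reads on genes, so a single read on 1000 bases was worth 0.139 to 0.314 TPM. RNR2, a mitochondrial ribosomal RNA, held 41.0% to 48.3% of all TPM. RPMI/B27 replicates 3 and 4 at Day 30 stood apart from the other 2 wells of their group. RNR1, the other mitochondrial ribosomal RNA, was at 14387 and 29276 TPM in them against 1545 and 619 TPM, and their median-of-ratios factors, which give the level of a typical gene, were 0.783 and 0.718 against 1.147 and 1.166. Of the 31 genes, 24 lay lower in both of these wells than in replicates 1 and 2, as did 74.4% of all genes tested. After division by the factor this held for 3 of 31 and 23.9%. Results are therefore given on TPM, on TPM divided by this factor (scaled TPM), and without the 2 wells where they matter. RNR1 varied within the other groups as well. In RPMI_glcM/B27 it was at 4872 and 6806 TPM in replicates 3 and 4 against 225 and 355. The factors of these wells were 0.974 and 0.874 against 1.052 and 1.032. In HPLM/B27 it was at 6359 and 5889 TPM in replicates 1 and 4 against 138 and 203, and at Day 16 at 3793 TPM in replicate 4 against 49.5 to 127. At Day 16 replicate 2 held the highest TPM of its group in 25 of the 31 genes (16 scaled). Replicate 4 of Day 16 held the lowest in 25 (10 scaled), and replicate 4 of RPMI_glcM/B27 in 27 (6 scaled). Leaving out the 2 RPMI/B27 wells thus changes 1 side of each comparison only, while wells high in RNR1 stay on the other. All 12 cardiomyocyte markers were detected, at a summed 13308 to 17759 TPM over all libraries. The 10 fibroblast-like markers, 7 of them at a mean of 1 TPM or more, summed to 245 to 447 TPM at Day 16, 153 to 302 in RPMI/B27, 119 to 164 in RPMI_glcM/B27 and 124 to 187 in HPLM/B27. In the same order of groups, the 6 smooth muscle-like markers summed to 490 to 981, 288 to 1071, 317 to 425 and 345 to 558 TPM. The 5 epithelial-like markers summed to 936 to 1274, 787 to 1585, 667 to 841 and 683 to 786 TPM. The part of these markers in the results was not tested. In bulk RNA, fewer cells of a type and less RNA per cell cannot be told apart.

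**Figure D1:**
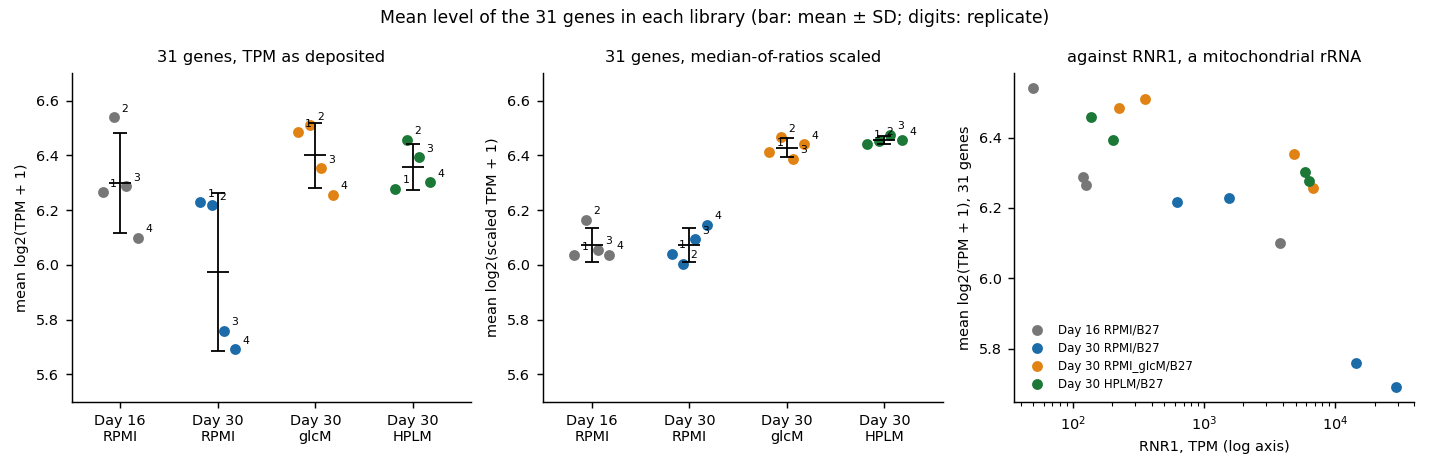
Mean log2(TPM + 1) of the 31 genes in each library by group (left), the same after median-of-ratios scaling (middle), and the unscaled mean against RNR1 in TPM on a log axis (right). Each point is a library, labelled by its replicate number in the left and middle panels. RPMI/B27 replicates 3 and 4 have the lowest unscaled means (5.76 and 5.69), and after scaling the RPMI_glcM/B27 and HPLM/B27 libraries lie at 6.39 to 6.48 and the Day 16 and RPMI/B27 libraries at 6.004 to 6.164.

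The 31 genes together took 0.469% to 0.965% of a library's TPM. GAPDH, the dehydrogenase of glyceraldehyde phosphate, was the highest by mean TPM over all libraries at 3456, followed by ENO1 (694), LDHB (532), LDHA (465), PKM (378) and TPI1 (336). The lowest were ALDOA (6.33), PGM2 (6.07), PHKA1 (3.85) and PHKG1 (1.17), the last resting on 6 to 34 reads per library. Within families, PFKP, the platelet form of phosphofructokinase, exceeded the muscle form PFKM, and the brain forms ALDOC and PYGB exceeded ALDOA and the muscle phosphorylase PYGM. ALDOA, on chromosome 16 at 30064279 to 30070420, lies almost wholly inside a longer annotated locus, LOC112694756, listed at 0 TPM in every library, and how reads in overlapping genes were handled is not given in the sources used here. The level of ALDOA and its ratio to ALDOC are therefore uncertain. PFKM, TPI1, PGAM2, GYG1, PYGB, PHKA1 and PHKG1 also overlap another listed gene in part.

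The media at Day 30 were compared to ask what lower glucose and what the other components of HPLM do to these genes. With 5 mM glucose in RPMI, 9 of the 31 genes were higher than in RPMI/B27 and 0 lower at an adjusted p under 0.05, where 2.2% of all genes tested passed (1.36% upward, 0.837% downward). The 9 were HK2, PFKP, ALDOA, TPI1, ENO1, PKM, LDHA, PYGL and PGM1. In HPLM/B27, 6 were higher than in RPMI/B27 (HK2, TPI1, ENO2, ENO3, LDHA and LDHB) and 0 lower, against 2.41% of all genes (1.51% upward, 0.893% downward). Between HPLM/B27 and RPMI_glcM/B27, limma called 0 of the 31, against 0.0682% of all genes (0.0496% upward, 0.0186% downward). At an unadjusted p under 0.05 there were 5 of the 31 and 6.53% of all genes. The first and second of these comparisons share the RPMI/B27 libraries.

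On scaled TPM, 17 were higher and 1 lower in the first comparison, where 12.1% of all genes were called (6.17% upward, 5.89% downward). In the second the counts were 20 and 1 (12.9%, with 7.05% and 5.87%), and in the third 1 and 1 (1.63%, with 0.999% and 0.626%). The 9 and 6 genes called on TPM in the first and second comparisons were all among those called on scaled TPM. Limma-voom on recovered reads called 20, 22 and 2, where 12.9%, 16.1% and 1.74% of all genes were called. The median log2 fold change of the 31 was 0.51, 0.46 and −0.07, beside 0.05, −0.02 and −0.06 over all genes tested. All 4 libraries of RPMI_glcM/B27 lay above all 4 of RPMI/B27 for 16 of the 31 genes and below for 0, as did 4.4% and 2.6% of all genes. For HPLM/B27 against RPMI/B27 the counts were 16 and 0 (4.13% and 3.17%), and for HPLM/B27 against RPMI_glcM/B27 4 and 3 (2.41% and 4.86%). Without RPMI/B27 replicates 3 and 4, RPMI_glcM/B27 had 5 higher and 1 lower with a median of 0.23 (all genes −0.21), where 10.4% of all genes were called (1.04% upward, 9.31% downward). HPLM/B27 had 6 and 2 with a median of 0.23 (all genes −0.27), where 20.9% were called (1.53% upward, 19.4% downward). On scaled TPM without the 2 wells the counts were 17 and 0 (9.14%, with 4.87% and 4.27%), and 20 and 1 (12.3%, with 6.77% and 5.58%).

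**Figure D2:**
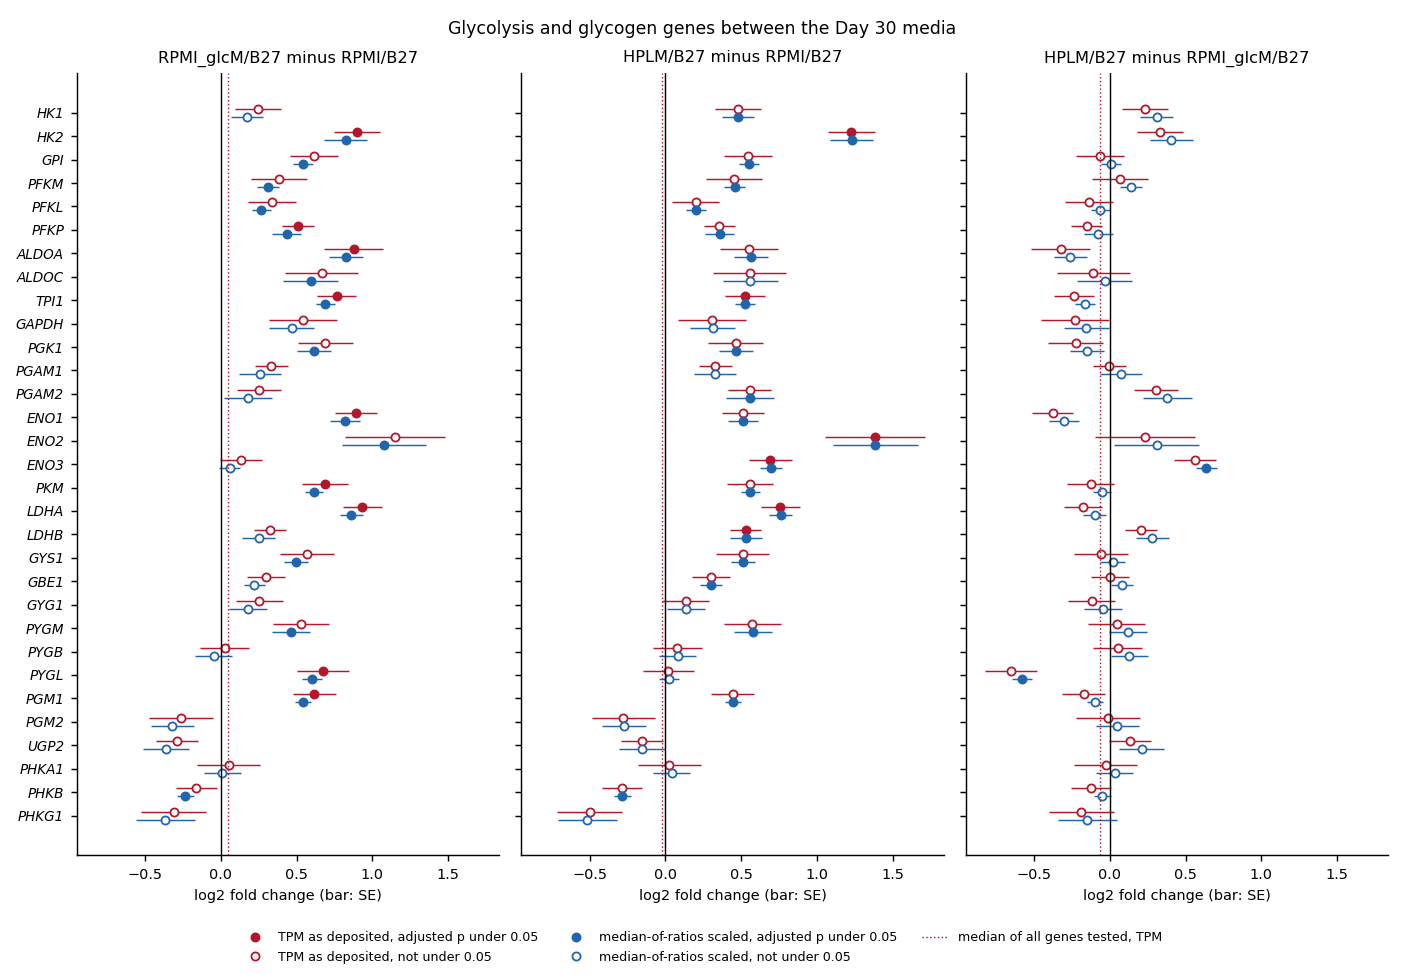
Log2 fold change of each of the 31 genes between Day 30 media with its SE as a bar, on TPM in red and on scaled TPM in blue, filled where the adjusted p is under 0.05, with the median of all genes tested as a dotted line. Of the 31, 27 lie above 0 on TPM in each of the comparisons with RPMI/B27, and 11 do in HPLM/B27 minus RPMI_glcM/B27.

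Glucose enters the pathway through hexokinase, and HK2, the inducible form of muscle and heart, was higher in both media with 5 mM glucose than in RPMI/B27. HK2 stood at 24.6, 24.9, 24.8 and 19.0 TPM in replicates 1 to 4 of RPMI/B27, at 40.3, 53.1, 42.5 and 41.5 in RPMI_glcM/B27 and at 49.4, 53.5, 74.3 and 49.0 in HPLM/B27. At Day 16 it had been at 39.0, 48.2, 46.2 and 34.8 TPM. Every RPMI/B27 library lay below every library of the other groups, and the RPMI_glcM/B27 and HPLM/B27 ranges overlapped. The log2 fold change on log2(TPM + 1), with its SE, was 0.90 ± 0.15, adjusted p = 0.0057 for RPMI_glcM/B27 minus RPMI/B27, with adjusted p from 0.000438 to 0.0506 over 8 alternative fits that kept every library. For HPLM/B27 minus RPMI/B27 it was 1.23 ± 0.15, adjusted p = 0.000332 (2.71e-06 to 0.0137 over the alternatives). Without RPMI/B27 replicates 3 and 4 the values were 0.81, adjusted p = 0.0142, and 1.14, adjusted p = 0.00199, and no single library decided either call. HK1, the constitutive hexokinase, ranged from 70.4 to 116 TPM in RPMI/B27, 98.1 to 132 in RPMI_glcM/B27 and 132 to 142 in HPLM/B27, and its differences from RPMI/B27 did not pass on TPM (0.25 ± 0.15, adjusted p = 0.478, and 0.48 ± 0.15, adjusted p = 0.116), the second passing on scaled TPM (0.48 ± 0.11, adjusted p = 0.00835).

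Phosphofructokinase catalyses the committed step. PFKP was at 173, 171, 166 and 126 TPM in RPMI/B27, 228, 241, 217 and 214 in RPMI_glcM/B27 and 194, 203, 204 and 209 in HPLM/B27, after 184, 191, 186 and 169 at Day 16. On TPM the RPMI_glcM/B27 libraries were the highest of the 4 groups without overlap, and those of HPLM/B27 came next. On scaled TPM the HPLM/B27 range (202 to 233) overlapped those of RPMI_glcM/B27 (217 to 244) and RPMI/B27 (147 to 212). PFKP was higher in RPMI_glcM/B27 than in RPMI/B27 (0.51 ± 0.10, adjusted p = 0.0167, 0.000284 to 0.201 over the alternatives), also without RPMI/B27 replicates 3 and 4 (0.39, adjusted p = 0.00813). The call was lost on leaving out any 1 of RPMI_glcM/B27 replicates 1 and 2 (adjusted p from 0.0524 to 0.0689). HPLM/B27 minus RPMI/B27 gave 0.36 ± 0.10, adjusted p = 0.0857, and passed on scaled TPM (0.36 ± 0.10, adjusted p = 0.0227). Without RPMI/B27 replicates 3 and 4 it passed on TPM (0.23, adjusted p = 0.0392). The muscle and liver forms, PFKM at 25.5 to 50.6 TPM in RPMI/B27 against 43.2 to 51.9 in RPMI_glcM/B27 and PFKL at 20.1 to 30.4 against 27.1 to 34.9, passed in neither comparison on TPM and in both on scaled TPM, upward. GPI, which makes the substrate of this step, stood at 25.8 to 39.7 TPM in RPMI/B27, 42.3 to 56.4 in RPMI_glcM/B27 and 41.4 to 54.2 in HPLM/B27 and likewise passed only on scaled TPM, upward in both.

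Aldolase cleaves the hexose and triose phosphate isomerase evens out the pair of products. TPI1 was at 302, 291, 197 and 218 TPM in RPMI/B27, 456, 433, 409 and 390.4 in RPMI_glcM/B27 and 332, 395, 367 and 337 in HPLM/B27, and at 290.4, 354, 318 and 288 at Day 16. Both groups at 5 mM glucose lay above RPMI/B27 without overlap, and they overlapped each other. TPI1 rose in RPMI_glcM/B27 (0.76 ± 0.13, adjusted p = 0.00592, 1.35e-06 to 0.0983 over the alternatives), a call no single library decided and that held without RPMI/B27 replicates 3 and 4 (0.51, adjusted p = 0.0106). In HPLM/B27 it was higher too (0.53 ± 0.13, adjusted p = 0.0447, 1.11e-05 to 0.249 over the alternatives). That call was lost without the 2 RPMI/B27 wells (0.27, adjusted p = 0.0722) and on leaving out any 1 of HPLM/B27 replicates 1, 2, 3 and 4 and RPMI/B27 replicates 3 and 4 (adjusted p from 0.071 to 0.146). On scaled TPM without the same 2 wells TPI1 passed in HPLM/B27 (0.58, adjusted p = 9.56e-05).

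ALDOA, the muscle aldolase, gave 5.54, 4.72, 2.97 and 3.10 TPM in RPMI/B27, 9.95, 8.44, 7.35 and 7.04 in RPMI_glcM/B27, 6.03, 7.31, 5.90 and 5.97 in HPLM/B27 and 6.20, 9.55, 6.36 and 4.84 at Day 16, from 84 to 197 reads per library. Its RPMI/B27 libraries lay below those of both other Day 30 media. The difference for RPMI_glcM/B27 passed (0.88 ± 0.19, adjusted p = 0.0253, 9.81e-05 to 0.153 over the alternatives), but not without RPMI/B27 replicates 3 and 4 (0.58, adjusted p = 0.0771). It fell short once any 1 of RPMI/B27 replicates 3 and 4 or RPMI_glcM/B27 replicates 1, 2 and 3 was left out (adjusted p from 0.0531 to 0.086). HPLM/B27 minus RPMI/B27 was 0.55 ± 0.19, adjusted p = 0.163 on TPM and 0.57 ± 0.11, adjusted p = 0.0038 on scaled TPM. ALDOC, the brain form, was higher than ALDOA in deposited TPM, with the ratio uncertain as said above. ALDOC ranged from 31.3 to 53.0 TPM in RPMI/B27, 62.4 to 72.5 in RPMI_glcM/B27 and 53.0 to 76.9 in HPLM/B27. Neither difference passed on TPM (0.67 ± 0.24, adjusted p = 0.184, and 0.56 ± 0.24, adjusted p = 0.276), and the first passed on scaled TPM (0.59 ± 0.18, adjusted p = 0.0472).

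**Figure D3:**
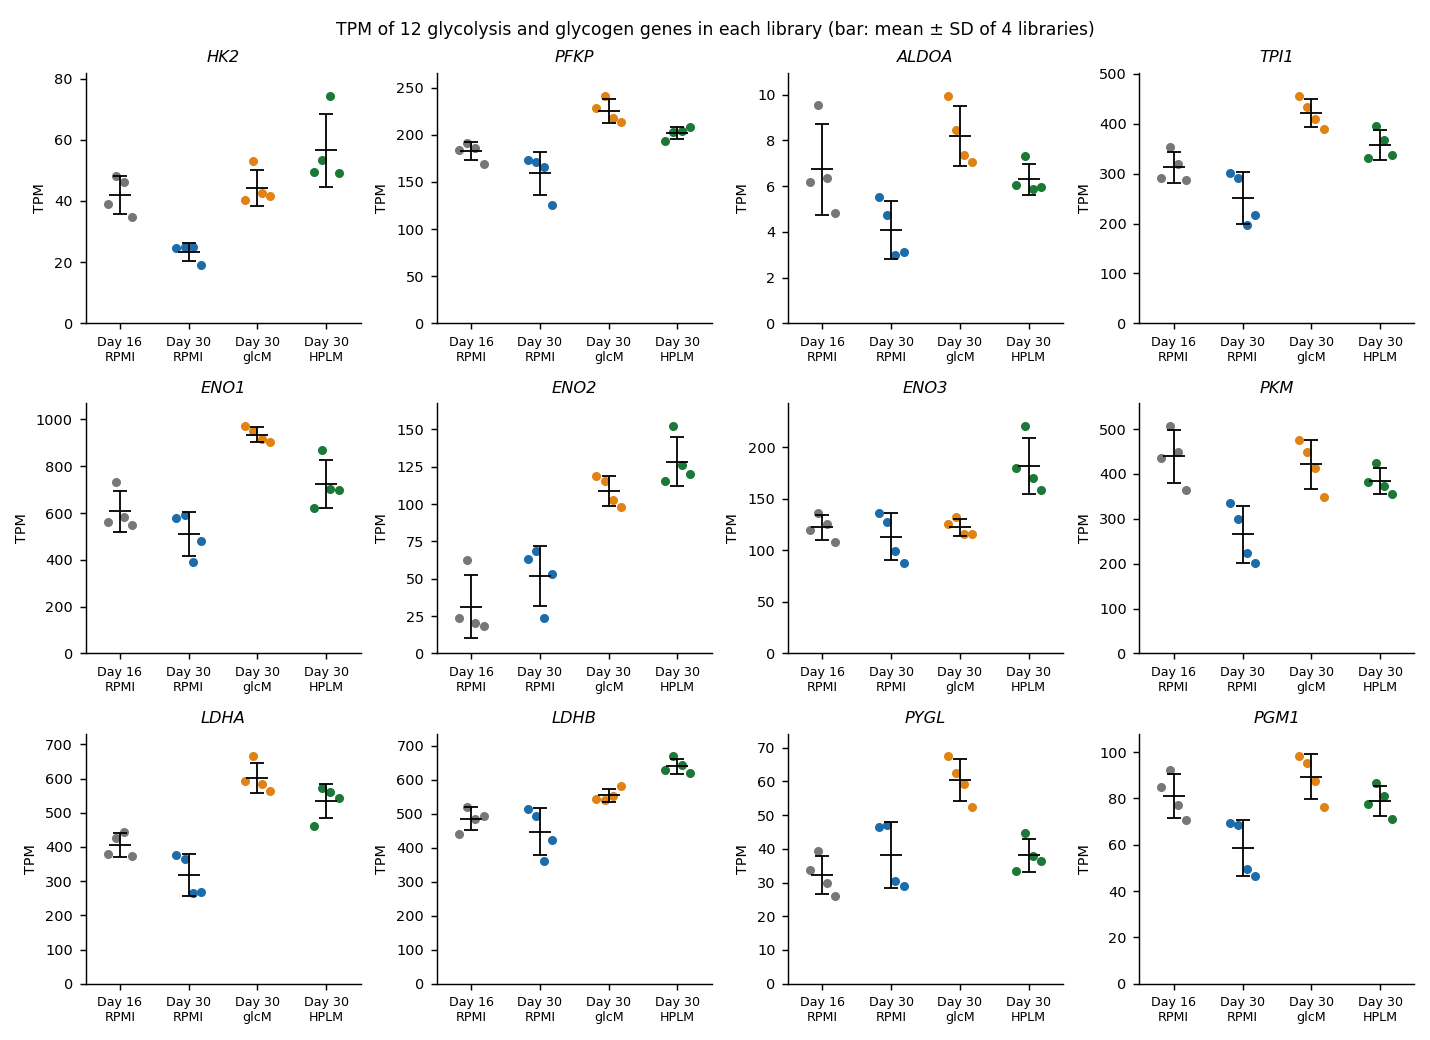
TPM in each of the 16 libraries for the 12 genes that differed between Day 30 media, with 4 points per group and the mean ± SD as a black bar, on axes that start at 0. HK2, TPI1 and LDHA lie higher in both media at 5 mM glucose than in RPMI/B27, whereas PYGL peaks in RPMI_glcM/B27 (52.3 to 67.4 TPM) and ENO3 in HPLM/B27 (158 to 221 TPM).

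In the steps from triose phosphate to pyruvate, where ATP is made, enolase and pyruvate kinase differed from RPMI/B27 and the dehydrogenase GAPDH did not pass. GAPDH ranged from 1781 to 3924 TPM in RPMI/B27, 3756 to 4342 in RPMI_glcM/B27 and 3059 to 4535 in HPLM/B27, with differences from RPMI/B27 of 0.54 ± 0.22, adjusted p = 0.255, and 0.31 ± 0.22, adjusted p = 0.576. PGK1, the kinase that follows, was at 101 to 203, 236 to 257 and 182 to 271 TPM in the same order and passed only on scaled TPM, upward in both comparisons. Of the phosphoglycerate mutases, the widespread form PGAM1 gave 0.33 ± 0.11, adjusted p = 0.137, and 0.33 ± 0.11, adjusted p = 0.138. Without RPMI/B27 replicates 3 and 4 the second difference passed on TPM (0.31, adjusted p = 0.0446) and on scaled TPM (0.62, adjusted p = 0.00241). The muscle form PGAM2 gave 0.25 ± 0.14, adjusted p = 0.44, and 0.56 ± 0.14, adjusted p = 0.0519, and the second passed on scaled TPM (0.56 ± 0.16, adjusted p = 0.033).

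Enolase, which makes phosphoenolpyruvate, has 3 genes here. ENO1, the ubiquitous form, was at 578, 592, 390.1 and 481 TPM in RPMI/B27, 971, 949, 915 and 904 in RPMI_glcM/B27 and 624, 869, 704 and 699.6 in HPLM/B27, and at 560.5, 734, 584 and 549.6 at Day 16. RPMI_glcM/B27 was the highest group without overlap with any other, and ENO1 rose there over RPMI/B27 (0.89 ± 0.14, adjusted p = 0.00282, 4.8e-06 to 0.0488 over the alternatives). The rise held without RPMI/B27 replicates 3 and 4 (0.68, adjusted p = 0.00797) and on leaving out any single library. HPLM/B27 minus RPMI/B27 was 0.51 ± 0.14, adjusted p = 0.0625 on TPM and 0.52 ± 0.10, adjusted p = 0.0033 on scaled TPM, and HPLM/B27 minus RPMI_glcM/B27 −0.38 ± 0.14, adjusted p = 0.547.

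ENO3, the muscle form, had 137, 128, 99.8 and 88.2 TPM in RPMI/B27, 126, 132, 116 and 116 in RPMI_glcM/B27, 180.2, 221, 169.8 and 158 in HPLM/B27 and 120.0, 136, 125 and 108 at Day 16. Here the HPLM/B27 libraries were the ones that lay above all others, and RPMI_glcM/B27 lay within the range of RPMI/B27. ENO3 was higher in HPLM/B27 than in RPMI/B27 (0.69 ± 0.14, adjusted p = 0.0135, 2.17e-06 to 0.145 over the alternatives, and 0.45, adjusted p = 0.0231 without RPMI/B27 replicates 3 and 4). The call was lost without HPLM/B27 replicate 2 (adjusted p = 0.0565). The direct difference from RPMI_glcM/B27 was 0.56 ± 0.14, adjusted p = 0.187 on TPM, and on scaled TPM it passed (0.64 ± 0.07, adjusted p = 0.000749), with 0.000135 to 0.275 over the alternatives.

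ENO2, the neuronal form, was at 63.2, 68.4, 23.6 and 53.1 TPM in RPMI/B27, with replicate 3 far under the others, and at 119, 115, 103 and 98.2 in RPMI_glcM/B27, 115, 152, 126 and 119.9 in HPLM/B27 and 23.7, 62.6, 20.7 and 18.6 at Day 16. Both media at 5 mM glucose lay above RPMI/B27 without overlap. HPLM/B27 minus RPMI/B27 passed (1.38 ± 0.33, adjusted p = 0.0357, 0.000137 to 0.0833 over the alternatives), but not without RPMI/B27 replicates 3 and 4 (0.95, adjusted p = 0.061). The call was lost on leaving out any 1 of HPLM/B27 replicates 1, 2, 3 and 4 and RPMI/B27 replicates 3 and 4 (adjusted p from 0.0502 to 0.11). On scaled TPM without RPMI/B27 replicates 3 and 4 the same difference passed (1.26, adjusted p = 0.0142). RPMI_glcM/B27 minus RPMI/B27 was 1.15 ± 0.33, adjusted p = 0.0853 on TPM and 1.08 ± 0.28, adjusted p = 0.0217 on scaled TPM.

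PKM, pyruvate kinase, whose M1 and M2 splice forms are not separated in gene-level values, was at 335, 300.1, 223 and 203 TPM in RPMI/B27, 475, 449, 414 and 349 in RPMI_glcM/B27 and 382, 425, 374 and 356 in HPLM/B27, and at 435, 507, 449.7 and 364 at Day 16. All RPMI/B27 libraries lay below all others, Day 16 included. PKM was higher in RPMI_glcM/B27 (0.69 ± 0.15, adjusted p = 0.0272, 2.3e-06 to 0.191 over the alternatives), though not without RPMI/B27 replicates 3 and 4 (0.40, adjusted p = 0.073). It fell short once any 1 of RPMI/B27 replicates 3 and 4 or RPMI_glcM/B27 replicates 1, 2 and 3 was left out (adjusted p from 0.0567 to 0.092). HPLM/B27 minus RPMI/B27 was 0.56 ± 0.15, adjusted p = 0.0691 on TPM and 0.56 ± 0.06, adjusted p = 4.41e-05 on scaled TPM.

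Lactate dehydrogenase converts pyruvate to lactate and is built from LDHA and LDHB subunits. LDHA, the muscle-type subunit, was at 376, 364, 265 and 267 TPM in RPMI/B27, 594, 665, 585 and 564 in RPMI_glcM/B27 and 460.3, 572, 561 and 542 in HPLM/B27, and at 379, 425, 444 and 373 at Day 16. Both media at 5 mM glucose lay above RPMI/B27 and above Day 16 without overlap, with RPMI_glcM/B27 mostly over HPLM/B27. LDHA rose over RPMI/B27 in RPMI_glcM/B27 (0.93 ± 0.13, adjusted p = 0.00114, 6.89e-07 to 0.0434 over the alternatives) and in HPLM/B27 (0.76 ± 0.13, adjusted p = 0.00374, 7.97e-07 to 0.0814). Without RPMI/B27 replicates 3 and 4 the values were 0.70, adjusted p = 0.00277, and 0.52, adjusted p = 0.00608, and both calls held on leaving out any single library. LDHA is the gene whose promoter above held 2 E-boxes, and their part in the result was not tested.

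LDHB, the heart-type subunit, was at 514, 492, 359.8 and 423 TPM in RPMI/B27, 544, 541, 552 and 583 in RPMI_glcM/B27 and 628, 669, 643 and 620.4 in HPLM/B27, and at 441, 521, 485 and 494 at Day 16. On TPM the groups at Day 30 stood in the order RPMI/B27, RPMI_glcM/B27, HPLM/B27 with no overlap between neighbours. On scaled TPM RPMI/B27 (422 to 589) and RPMI_glcM/B27 (517 to 666.6) overlapped, and HPLM/B27 (666.9 to 708) lay above both. LDHB was higher in HPLM/B27 than in RPMI/B27 (0.53 ± 0.10, adjusted p = 0.012, 0.000599 to 0.169 over the alternatives, 0.35, adjusted p = 0.00845 without RPMI/B27 replicates 3 and 4), a call that held on leaving out any single library. RPMI_glcM/B27 minus RPMI/B27 was 0.32 ± 0.10, adjusted p = 0.13, and HPLM/B27 minus RPMI_glcM/B27 0.21 ± 0.10, adjusted p = 0.809.

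Among the glycogen genes the liver-form phosphorylase PYGL and the mutase PGM1 differed from RPMI/B27, both in RPMI_glcM/B27. PYGL, which releases glucose 1-phosphate from glycogen, was at 46.3, 47.0, 30.5 and 29.0 TPM in RPMI/B27, 67.4, 62.5, 59.2 and 52.3 in RPMI_glcM/B27, 33.4, 44.7, 37.8 and 36.2 in HPLM/B27 and 33.7, 39.3, 29.8 and 25.9 at Day 16. RPMI_glcM/B27 lay above every other group without overlap, and HPLM/B27 lay within the range of RPMI/B27. The difference from RPMI/B27 was 0.67 ± 0.17, adjusted p = 0.0497 (1.79e-05 to 0.209 over the alternatives), and 0.36, adjusted p = 0.139 without RPMI/B27 replicates 3 and 4. It fell short once any 1 of RPMI/B27 replicates 3 and 4 or RPMI_glcM/B27 replicates 1, 2, 3 and 4 was left out (adjusted p from 0.0614 to 0.138). HPLM/B27 minus RPMI_glcM/B27 was −0.65 ± 0.17, adjusted p = 0.208 on TPM and passed on scaled TPM (−0.58 ± 0.07, adjusted p = 0.000749), with 0.000265 to 0.312 over the alternatives. The 12 hepatic endoderm-like markers, 11 of them at a mean of 1 TPM or more, summed to 474 to 846 TPM at Day 16, 330.4 to 583 in RPMI/B27, 95.0 to 219 in RPMI_glcM/B27 and 71.4 to 214 in HPLM/B27. Their level was thus lower in RPMI_glcM/B27 than in RPMI/B27 without overlap, where PYGL was higher, and their part in the result was not tested.

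PGM1, which interconverts glucose 1-phosphate and glucose 6-phosphate, was at 69.6, 68.6, 49.7 and 46.6 TPM in RPMI/B27, 98.2, 95.1, 87.7 and 76.3 in RPMI_glcM/B27 and 77.5, 86.5, 81.2 and 71.0 in HPLM/B27, and at 85.0, 92.1, 77.0 and 70.5 at Day 16. RPMI/B27 lay below every other group. The difference for RPMI_glcM/B27 was 0.62 ± 0.14, adjusted p = 0.0305 (1.03e-05 to 0.202 over the alternatives), and 0.36, adjusted p = 0.0722 without RPMI/B27 replicates 3 and 4. The call was lost on leaving out any 1 of RPMI/B27 replicates 3 and 4 or RPMI_glcM/B27 replicates 1, 2 and 3 (adjusted p from 0.0594 to 0.103). PGM2, a mutase that prefers pentose phosphates, ranged from 4.20 to 8.36 TPM in RPMI/B27, 3.48 to 5.99 in RPMI_glcM/B27 and 3.41 to 6.20 in HPLM/B27, and gave −0.26 ± 0.21, adjusted p = 0.616, and −0.28 ± 0.21, adjusted p = 0.602. Without RPMI/B27 replicates 3 and 4 the second of these passed (−0.63, adjusted p = 0.0479), in a fit where 19.4% of all genes were called lower. On scaled TPM without the same 2 wells it did not pass (−0.36, adjusted p = 0.212).

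The other phosphorylases passed in neither medium on TPM. PYGM stood at 11.3 to 18.2 TPM in RPMI/B27, 19.9 to 21.8 in RPMI_glcM/B27 and 19.4 to 24.1 in HPLM/B27, with differences of 0.53 ± 0.19, adjusted p = 0.174, and 0.57 ± 0.19, adjusted p = 0.131, and passed upward in both on scaled TPM. PYGB stood at 37.3 to 70.5, 47.1 to 62.8 and 52.3 to 66.0 TPM, with 0.03 ± 0.16, adjusted p = 0.966, and 0.08 ± 0.16, adjusted p = 0.882. Its sign in the first of these differed with scaling.

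For glycogen synthesis, the muscle synthase GYS1 gave 0.57 ± 0.18, adjusted p = 0.114, and 0.51 ± 0.18, adjusted p = 0.156, the branching enzyme GBE1 0.30 ± 0.12, adjusted p = 0.269, and 0.30 ± 0.12, adjusted p = 0.257, and the primer protein glycogenin, GYG1, 0.25 ± 0.15, adjusted p = 0.477, and 0.13 ± 0.15, adjusted p = 0.769. UGP2, which makes the activated glucose donor, was at 189 to 276 TPM in RPMI/B27, 184 to 233 in RPMI_glcM/B27 and 202 to 256 in HPLM/B27, and its differences were −0.29 ± 0.14, adjusted p = 0.352, and −0.15 ± 0.14, adjusted p = 0.681. No gene of this group passed on TPM. GYS1 passed upward in both comparisons on scaled TPM, and GBE1 in HPLM/B27.

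Phosphorylase kinase, the calcium-sensitive activator of phosphorylase, was represented by 3 subunit genes. PHKB, the β subunit, ranged from 37.7 to 59.8 TPM in RPMI/B27, 38.0 to 46.7 in RPMI_glcM/B27 and 37.3 to 42.1 in HPLM/B27, and its differences on TPM were −0.16 ± 0.13, adjusted p = 0.627, and −0.29 ± 0.13, adjusted p = 0.323. PHKB was the 1 member called lower against RPMI/B27 on scaled TPM, in both comparisons (−0.23 ± 0.06, adjusted p = 0.0141, and −0.28 ± 0.06, adjusted p = 0.00401), and on TPM it was called lower without RPMI/B27 replicates 3 and 4 (−0.42, adjusted p = 0.0203, and −0.55, adjusted p = 0.00423). PHKA1, the muscle α subunit, and PHKG1, the muscle catalytic subunit, had low levels and adjusted p of 0.941 and 0.538 in RPMI_glcM/B27 and 0.976 and 0.268 in HPLM/B27.

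The share of a paralog in the summed TPM of its family does not depend on how a library is scaled. For 15 shares and 6 comparisons, 46 of the 90 exact two-sided permutation tests of 4 against 4 libraries found no overlap, each at the smallest p the design allows, 0.0286, which became 0.0559 after Benjamini-Hochberg adjustment over the 90, so none could pass 0.05 and the values stand as a description. HK2 made up 19.7% ± 0.895 (SD, n = 4) of HK1 plus HK2 at Day 16, 19.0% ± 1.63 with RPMI/B27, 27.3% ± 2.95 with RPMI_glcM/B27 and 28.8% ± 3.75 with HPLM/B27. LDHA made up 45.5% ± 2.03 of the lactate dehydrogenase sum at Day 16, 41.5% ± 1.86 with RPMI/B27, 52.0% ± 2.46 with RPMI_glcM/B27 and 45.4% ± 2.09 with HPLM/B27. RPMI_glcM/B27 was thus the 1 group in which LDHA exceeded LDHB on average.

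ENO3 made up 16.2% ± 1.21 of the enolase sum at Day 16, 16.9% ± 2.22 with RPMI/B27, 10.5% ± 0.375 with RPMI_glcM/B27 and 17.6% ± 1.47 with HPLM/B27. ENO2 stood at 3.92% ± 1.88, 7.49% ± 1.94, 9.31% ± 0.461 and 12.4% ± 0.192 in the same order. RPMI_glcM/B27 held the lowest ENO3 share in all 4 libraries (10.2% to 11.04%) and HPLM/B27 the highest ENO2 share in all 4 (12.3% to 12.6%). Of the phosphorylase sum, PYGL took 24.3% ± 1.498 at Day 16, 34.9% ± 4.03 with RPMI/B27, 43.7% ± 1.05 with RPMI_glcM/B27 and 32.0% ± 3.45 with HPLM/B27. PYGB took 53.3% ± 4.03, 51.7% ± 5.16, 41.0% ± 1.36 and 49.5% ± 4.56, and the muscle form PYGM 22.3% ± 4.06, 13.3% ± 1.25, 15.3% ± 0.993 and 18.5% ± 2.20. PYGL was thus ahead of PYGB on average in RPMI_glcM/B27, in 3 of the 4 libraries, and behind it in every library of the other groups. PGM2 took 9.85% ± 0.72 of PGM1 plus PGM2 at Day 16 and 9.11% ± 1.30, 5.02% ± 1.04 and 5.55% ± 1.098 in the 3 Day 30 media.

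**Figure D4:**
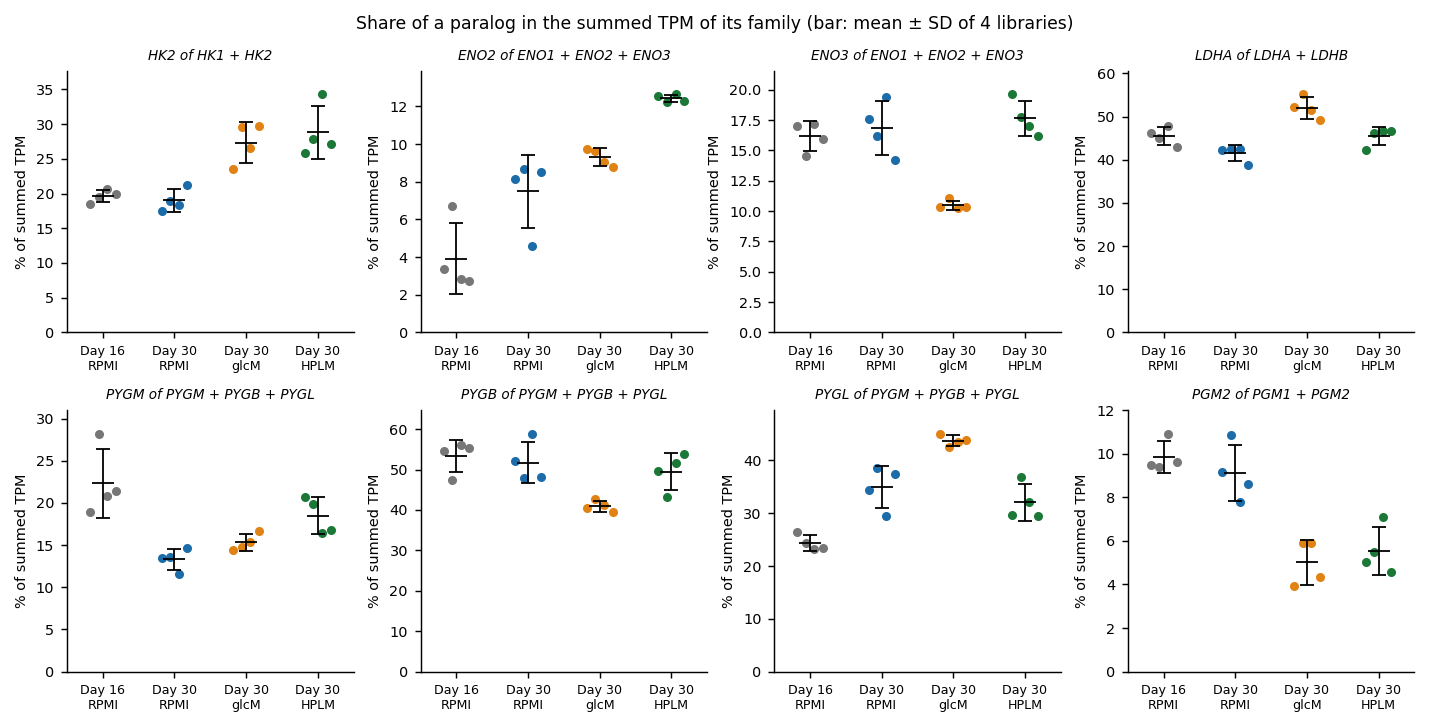
Share of a paralog in the summed TPM of its family, in percent, for 8 genes in each library (points) with the mean ± SD of 4 libraries (black bars), on axes that start at 0. The HK2 share is 27.3% and 28.8% on average at 5 mM glucose against 19.7% at Day 16 and 19.0% in RPMI/B27, and the ENO3 share is lowest in RPMI_glcM/B27 at 10.5%.

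The Day 30 groups were also set against Day 16, to ask what 2 further weeks in each medium changed. These comparisons share the Day 16 libraries. RPMI/B27 at Day 30 had 0 of the 31 genes above Day 16 and 10 below, where 19.9% of all genes were called (2.08% upward, 17.8% downward). RPMI_glcM/B27 had 8 above and 5 below (21.1% of all genes called, 3.34% upward and 17.8% downward), and HPLM/B27 6 and 5 (25.4%, 3.0% upward and 22.4% downward). On scaled TPM the counts were 4 and 8 (17.5%, with 8.62% and 8.91%), 18 and 4 (27.5%, with 13.4% and 14.2%), and 17 and 2 (25.3%, with 12.9% and 12.5%). All Day 30 libraries lay above all Day 16 libraries for 0, 10 and 8 of the 31 genes in the order of the media (1.72%, 4.24% and 3.77% of all genes), and below for 8, 7 and 5 (16.2%, 25.9% and 32.1%). The median log2 fold change of the 31 was −0.36, 0.09 and 0.03 on TPM, beside −0.28, −0.22 and −0.29 over all genes. Without RPMI/B27 replicates 3 and 4, that medium had 2 above and 5 below, where 9.66% of all genes were called (4.33% upward, 5.33% downward).

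The 10 genes lower in RPMI/B27 at Day 30 were HK1, HK2, GPI, ALDOA, PGAM1, PKM, PYGM, PGM1, PHKA1 and PHKB, of which 8 also passed on scaled TPM, not ALDOA and PGM1. HK1 fell from 172, 198, 178 and 139.7 TPM at Day 16 to 116, 106, 111 and 70.4 (−0.78 ± 0.15, adjusted p = 0.00263, 0.000287 to 0.0362 over the alternatives). HK2 fell too, as its values above show (−0.82 ± 0.15, adjusted p = 0.00205). PGAM1 fell from 147, 131, 156 and 138 TPM to 89.5, 78.8, 94.5 and 70.5 (−0.78 ± 0.11, adjusted p = 0.000247), and the muscle phosphorylase PYGM from 24.1, 45.4, 26.8 and 23.7 TPM, where replicate 2 is far above the others, to 18.2, 16.6, 12.0 and 11.3 (−0.97 ± 0.19, adjusted p = 0.00264). HK1, HK2, PGAM1, PKM and PYGM kept the call without RPMI/B27 replicates 3 and 4 (−0.62, adjusted p = 0.00959 for HK1 and −0.76, adjusted p = 0.000432 for PGAM1). GPI, ALDOA, PGM1, PHKA1 and PHKB lost it (adjusted p = 0.0649 for GPI and 0.414 for PHKA1), while ENO2 (1.22, adjusted p = 0.0363) and PYGL (0.54, adjusted p = 0.0396) were then called higher. On scaled TPM without the same wells GPI, PGM1 and PHKB were called lower (adjusted p = 0.00245, 0.0362 and 0.0241). ALDOA and PHKA1 were not (adjusted p = 0.217 and 0.279). ALDOA, PGM1 and PHKA1 each lost the call on leaving out any 1 of Day 16 replicates 1, 2 and 3 or RPMI/B27 replicates 3 and 4 (adjusted p from 0.0516 to 0.133 over the 3 genes).

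In RPMI_glcM/B27 the genes above Day 16 were PFKP, ALDOC, TPI1, PGK1, ENO1, ENO2, LDHA and PYGL, and those below HK1, PGAM1, PGM2, UGP2 and PHKB. In HPLM/B27 those above were ALDOC, PGAM2, ENO2, ENO3, LDHA and LDHB, and those below PGAM1, PGM2, UGP2, PHKA1 and PHKB. ENO2 showed the greatest difference of the 31 upward in both, at 1.94 ± 0.33, adjusted p = 0.000628, and 2.17 ± 0.33, adjusted p = 0.000266. ALDOC was at 32.9, 56.9, 22.6 and 22.4 TPM at Day 16, 72.5, 71.7, 63.4 and 62.4 in RPMI_glcM/B27 and 63.1, 76.9, 59.0 and 53.0 in HPLM/B27 (1.08 ± 0.24, adjusted p = 0.0045, and 0.97 ± 0.24, adjusted p = 0.00817). LDHA rose by 0.57 ± 0.13, adjusted p = 0.00429, and 0.40 ± 0.13, adjusted p = 0.0306. The second call was lost on leaving out any 1 of Day 16 replicates 1 and 4 or HPLM/B27 replicates 2, 3 and 4 (adjusted p from 0.069 to 0.0827).

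PYGL rose over Day 16 in RPMI_glcM/B27 (0.90 ± 0.17, adjusted p = 0.00145), and its difference in HPLM/B27 was 0.24 ± 0.17, adjusted p = 0.3 on TPM and 0.57 ± 0.07, adjusted p = 1.71e-05 on scaled TPM. PGAM2, the muscle mutase, was at 39.7, 33.1, 23.6 and 30.6 TPM at Day 16 and 49.1, 41.0, 40.3 and 40.7 in HPLM/B27 (0.44 ± 0.14, adjusted p = 0.0349). The calls of PFKP in RPMI_glcM/B27 and of PGAM2 and PHKA1 in HPLM/B27 were lost on leaving out all but at most 1 of the 8 libraries in turn (adjusted p up to 0.124, 0.124 and 0.114). TPI1 in RPMI_glcM/B27 lost its call without any 1 of Day 16 replicates 1, 3 and 4 or RPMI_glcM/B27 replicates 1, 2 and 3, HK1 without any 1 of Day 16 replicates 2 and 3 or RPMI_glcM/B27 replicate 4, and PGM2 without RPMI_glcM/B27 replicate 4 (adjusted p up to 0.0785, 0.0721 and 0.0518).

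Among the genes below Day 16, PHKB fell in both (−0.69 ± 0.13, adjusted p = 0.00167, and −0.81 ± 0.13, adjusted p = 0.000479), as did PGM2 (−0.80 ± 0.21, adjusted p = 0.0133, and −0.81 ± 0.21, adjusted p = 0.0111), and both kept these calls on scaled TPM. PHKB was at 71.1, 74.3, 68.7 and 64.6 TPM at Day 16, 46.5, 46.7, 40.4 and 38.0 in RPMI_glcM/B27 and 37.3, 38.7, 42.1 and 38.6 in HPLM/B27, without overlap. UGP2 ranged from 276 to 375 TPM at Day 16, and in HPLM/B27 its call and that of PGAM1 were lost on scaled TPM (−0.21 ± 0.15, adjusted p = 0.343 for UGP2, and −0.11 ± 0.14, adjusted p = 0.596 for PGAM1). In RPMI_glcM/B27 those of HK1 and PGAM1 were lost (−0.27 ± 0.11, adjusted p = 0.0737, and −0.19 ± 0.14, adjusted p = 0.352), and that of PHKA1 in HPLM/B27 (−0.35 ± 0.12, adjusted p = 0.0526). The sign of the difference from Day 16 depended on the scaling for 10 of the 31 genes with RPMI/B27, 4 with RPMI_glcM/B27 and 8 with HPLM/B27. Of these, PFKL and PKM in RPMI_glcM/B27 and PGM1 in HPLM/B27 were negative and uncalled on TPM and called higher on scaled TPM, and the others were called on neither scale.

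**Figure D5:**
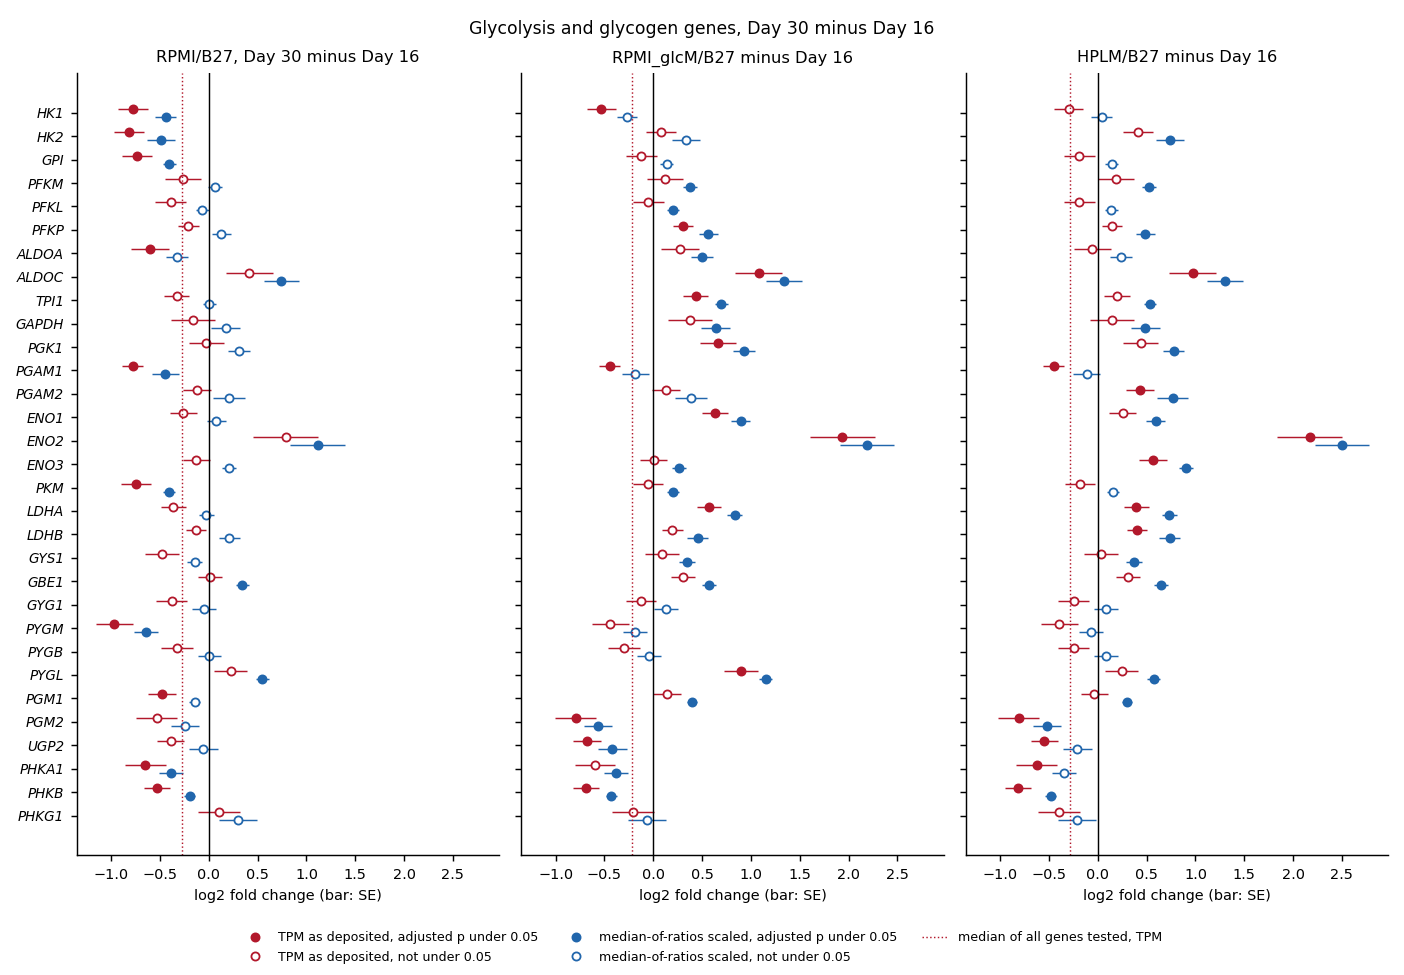
Log2 fold change of each of the 31 genes, Day 30 minus Day 16, with its SE as a bar, on TPM in red and on scaled TPM in blue, filled where the adjusted p is under 0.05, with the median of all genes tested as a dotted line. ENO2 and ALDOC lie furthest to the right in RPMI_glcM/B27 and HPLM/B27, and the dotted line lies at −0.28, −0.22 and −0.29.

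Further genes of the pathway were read from lists fixed by symbol, with earlier results of these data known. Glucose uptake, lactate export and flux switches had 17 of 19 genes tested, with 3 higher and 2 lower in RPMI_glcM/B27 than in RPMI/B27 and, against the same group, 5 and 2 in HPLM/B27. Of all genes tested, 2.2% were called in the first comparison (1.36% upward, 0.837% downward) and 2.41% in the second (1.51% upward, 0.893% downward). TXNIP, an inhibitor of glucose uptake whose transcription responds to glucose, stood at 57.5 to 243 TPM in RPMI/B27 against 2.45 to 5.55 in RPMI_glcM/B27 and 2.55 to 6.16 in HPLM/B27 (−4.51 ± 0.39, adjusted p = 4.42e-05, and −4.58 ± 0.39, adjusted p = 1.19e-05). Its relative ARRDC4 stood at 12.8 to 32.9, 1.14 to 2.55 and 2.29 to 3.74 TPM (−2.97 ± 0.27, adjusted p = 5.16e-05, and −2.57 ± 0.27, adjusted p = 7.32e-05). Both fell in both media.

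The 3 genes of that list with the greatest difference upward from RPMI/B27 were the same in both comparisons. PFKFB2, which makes the activator of phosphofructokinase in heart, was at 1.37 to 3.02 TPM in RPMI/B27, 7.18 to 7.85 in RPMI_glcM/B27 and 9.64 to 14.6 in HPLM/B27 (1.39 ± 0.19, adjusted p = 0.00121, and 2.02 ± 0.19, adjusted p = 2.56e-05). The insulin-responsive glucose transporter SLC2A4 was at 6.05 to 17.6, 24.4 to 32.4 and 21.8 to 36.7 TPM (1.28 ± 0.29, adjusted p = 0.0302, and 1.32 ± 0.29, adjusted p = 0.0242). The basal transporter SLC2A1 was at 18.6 to 30.99, 58.2 to 76.7 and 55.4 to 81.7 TPM (1.23 ± 0.18, adjusted p = 0.00196, and 1.19 ± 0.18, adjusted p = 0.002). With RPMI/B27 replicates 3 and 4 left out, the list held 2 higher and 2 lower in RPMI_glcM/B27 and 3 and 3 in HPLM/B27. Of all genes, 10.4% and 20.9% were then called, mostly downward (9.31% and 19.4%). TXNIP, ARRDC4, PFKFB2 and SLC2A1 still passed in both comparisons and SLC2A4 in neither.

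Hypoxia-response genes outside glycolysis had 21 of 22 tested, with 4 higher in RPMI_glcM/B27 and 5 in HPLM/B27 than in RPMI/B27 and 0 lower. Of all genes tested, 1.36% and 1.51% were called higher in these comparisons. BNIP3, a mitophagy receptor, was at 539 to 813 TPM in RPMI/B27, 1172 to 1451 in RPMI_glcM/B27 and 1097 to 1511 in HPLM/B27 (0.95 ± 0.15, adjusted p = 0.00392, and 0.93 ± 0.15, adjusted p = 0.00332). ERO1A, an oxidase of the endoplasmic reticulum, gave 0.84 ± 0.21, adjusted p = 0.0444, and 0.84 ± 0.21, adjusted p = 0.042. FAM162A gave 0.74 ± 0.15, adjusted p = 0.0192 in RPMI_glcM/B27 and INSIG2 0.69 ± 0.16, adjusted p = 0.032 in HPLM/B27. Other glycogen genes had 20 of 22 tested, with 0 called in RPMI_glcM/B27 minus RPMI/B27. Other isozymes and side steps of glycolysis had 13 of 23 tested and 0 called against RPMI/B27. Leaving out RPMI/B27 replicates 3 and 4, the hypoxia-response genes held 2 and 3 higher, with BNIP3 and FAM162A passing in both comparisons and ERO1A and INSIG2 in neither. The other glycogen genes then held 4 lower in each comparison, all of them absent from the calls on TPM with every library. In these fits 1.04% and 1.53% of all genes were called higher and 9.31% and 19.4% lower. The median log2 fold change over all genes was −0.21 and −0.27. Of the other isozymes and side steps, MINPP1 was then called lower in both comparisons (−0.44 ± 0.11, adjusted p = 0.0242, and −0.50 ± 0.11, adjusted p = 0.00817) and TIGAR in HPLM/B27 (−0.50 ± 0.17, adjusted p = 0.0477).

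On scaled TPM more genes of these lists were called against RPMI/B27, as were more of all genes tested. The shares over all genes were 12.1% in RPMI_glcM/B27 (6.17% upward, 5.89% downward) and 12.9% in HPLM/B27 (7.05% upward, 5.87% downward). Uptake, export and flux switches held 7 higher and 2 lower in RPMI_glcM/B27 and 10 and 2 in HPLM/B27. The hypoxia-response genes held 9 higher and 0 lower in each, and the other glycogen genes 5 and 4, and 3 and 3. The other isozymes and side steps held 1 and 1 in each, with MINPP1 lower in both, PGAM4 higher in RPMI_glcM/B27 (0.87 ± 0.24, adjusted p = 0.0289) and GPD1L higher in HPLM/B27 (0.66 ± 0.11, adjusted p = 0.00131). In HPLM/B27 minus RPMI_glcM/B27, 0.0682% of all genes were called on TPM and 1.63% on scaled TPM. Of the 4 lists, limma on TPM called 0 genes. On scaled TPM it called PFKFB2 (0.71 ± 0.14, adjusted p = 0.0184), the glucose transporter SLC2A3 (0.56 ± 0.11, adjusted p = 0.0181), the pyruvate dehydrogenase kinase PDK3 (0.30 ± 0.07, adjusted p = 0.0353) and GPD1L (0.49 ± 0.11, adjusted p = 0.0388) higher in HPLM/B27.

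The genes whose profile over the 16 libraries was most like that of LDHA, by Pearson's r on log2(TPM + 1), were BNIP3 (0.974), the member TPI1 (0.961), ATP5MG (0.959), HSPA9 (0.957) and DDX41 (0.948). On scaled TPM they were TPI1, BNIP3, DDX41, ZNF252P and KIF1A, at 0.975 to 0.955. The 16 points share 4 groups, and on TPM the composition of each library.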

How the data were processed

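The 16 RNA libraries of WTC11 hPSC-CMs fall, by the sample labels, into 4 groups of 4 wells. The design text deposited with the series gives 3 wells per medium, the labels and the study's methods 4, and all were used. The authors made stranded total RNA libraries (Takara SMARTer, NovaSeq) and aligned reads to hg38. Per the submitters' processing notes STAR 2.5.3a, featureCounts 2.0.3 and R 4.1.3 were used. The deposited values are TPM for 43388 genes, each library summing to 1000000. The annotation, the gene lengths and the tool that made the TPM are not given in the sources used here. For their tests the authors used DESeq2.

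The 16122 genes averaging 1 TPM or more entered a limma fit (version 3.58.1, R 4.3.3) of log2(TPM + 1) on all 4 groups, with trended empirical Bayes variances. The 6 comparisons were adjusted by Benjamini-Hochberg over all genes, with a threshold of 0.05. A fold change on log2(TPM + 1) understates the change of low genes. A gene's TPM are whole reads times a constant per library, so reads were recovered from them for limma-voom (genes averaging 10 reads or more), and the scripts were tested on simulated data. Alternatives that kept every library were median-of-ratios scaling, a pseudocount of 0.1, no filter beyond a value above 0, a minimum of 5 TPM, TPM without mitochondrially encoded, ribosomal RNA and RN7SK genes, only the 2 groups compared, a replicate block, and limma-voom. Each library was also left out in turn. Leaving out RPMI/B27 replicates 3 and 4, and scaling with these or with Day 16 replicate 2 left out, was added after seeing the data.

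The 31 genes and the further lists were chosen with earlier results of these data known. All 31 are reported. The 12 past the threshold in a comparison among Day 30 media are given in every library, and from each further list at most 3 genes in each direction are named. A result of the other glycogen genes in HPLM/B27 is not reported here. The genes most like LDHA are the 5 of highest Pearson's r over the 16 libraries. Library values given for other genes were chosen after the calls were seen. Promoters come from the RefSeq table for GRCh38.p14, and amino acid sequences were not used here. Python 3.11.15, numpy 2.4.6, pandas 2.3.3, scipy 1.17.1 and matplotlib 3.10.9 were used.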

Additional observations from a re-analysis of the deposited data

Results flagged for a closer look

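Among the 124 groups of 4 libraries, 1 for each of the 31 genes and each group, 9 had a library far from the other 3 (Dixon's criterion at 95%, which chance alone passes in about 1 of 20 groups). In RPMI/B27 at Day 30 it was replicate 4, low for HK2 (19.0 TPM against 24.6 to 24.9), PFKP (125.6 against 166 to 173) and UGP2 (188.9 against 275 to 276). At Day 16 it was replicate 2, high for ENO2 (62.6 TPM against 18.6 to 23.7) and PYGM (45.4 against 23.7 to 26.8). HK2 was high in RPMI_glcM/B27 replicate 2 (53.1 TPM against 40.3 to 42.5). In HPLM/B27, ALDOA was high in replicate 2 (7.31 TPM against 5.90 to 6.03), PGAM2 in replicate 1 (49.1 against 40.3 to 41.0) and PHKG1 in replicate 4 (1.33 against 0.586 to 0.633).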

How the results depend on the processing

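The counts of the 31 genes called are followed in parentheses by the share of all genes called in the same fit. For RPMI_glcM/B27 minus RPMI/B27, 9 (2.2%) became 5 with all genes above 0 (0.779%), 2 with only the 2 groups in the fit (0.279%), 14 without mitochondrially encoded, ribosomal RNA and RN7SK genes (7.46%), 18 with median-of-ratios scaling (12.1%), 17 with that scaling and without RPMI/B27 replicates 3 and 4 (9.14%), and 20 with limma-voom (12.9%). For HPLM/B27 minus RPMI/B27, 6 (2.41%) became 1 with only the 2 groups (0.502%), 4 with all genes above 0 (0.899%), 20 without those RNA genes (8.23%), 21 with scaling (12.9%), 21 also without the 2 wells (12.3%) and 22 with limma-voom (16.1%). For HPLM/B27 minus RPMI_glcM/B27, 0 (0.0682%) became 2 under limma-voom (1.74%), scaling (1.63%), and without those RNA genes (0.634%). Against Day 16, RPMI/B27 with 10 (19.9%) had 6 with only the 2 groups (6.19%). RPMI_glcM/B27 with 13 (21.1%) had 22 with scaling (27.5%), 22 with limma-voom (29.6%) and 21 with scaling and without Day 16 replicate 2 (26.6%). HPLM/B27 with 11 (25.4%) had 17 without those RNA genes (22.6%), 19 with scaling (25.3%), 21 with limma-voom (29.5%) and 21 with scaling and without Day 16 replicate 2 (24.6%). The median log2 fold change of the 31 against Day 16 moved to −0.0273 (scaling) and −0.17 (without those RNA genes) in RPMI/B27, to 0.35 (scaling) in RPMI_glcM/B27, and to 0.37 and 0.25 in HPLM/B27. The cause was not tested.

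Leaving out 1 library at a time gave 4 to 12, 3 to 10, 0 to 0, 7 to 16, 10 to 12 and 8 to 9 genes called in the order above. The shares of all genes called ranged over 0.887% to 2.74%, 1.16% to 3.22%, 0.0062% to 0.031%, 10.9% to 31.1%, 14.4% to 20.7% and 17.5% to 25.6%. The lowest counts in the first followed the loss of RPMI_glcM/B27 replicate 1 or 2, in the second HPLM/B27 replicate 2, and the highest in the second RPMI/B27 replicate 1 and in the fourth RPMI/B27 replicate 1 or 2. Same-numbered deviations correlated at −0.066 to 0.211 over all genes. The labels do not say whether wells of the same number were paired, and these correlations cannot exclude it. With a replicate block the counts were 14, 15, 2, 17, 16 and 15 (4.47%, 4.54%, 0.298%, 29.4%, 27.8% and 34.2% of all genes). Counts and shares were higher than without the block in every comparison. In the same order, 2, 1, 0, 2, 2 and 2 of 8 libraries correlated best with their own number.

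A sign turned and was then called only in differences from Day 16 that were uncalled on TPM. PGK1 in RPMI/B27 was called at 0.31 (limma-voom) and 0.35 (scaling without replicates 3 and 4). In RPMI_glcM/B27, PFKL was called at 0.21 (limma-voom), 0.20 (scaling) and 0.26 (scaling without Day 16 replicate 2), and PKM at 0.21, 0.20 and 0.23. In HPLM/B27 without Day 16 replicate 2 and with scaling, PFKL was called at 0.20, ALDOA at 0.35 and PGM1 at 0.31, and PGM1 was also called at 0.31 (limma-voom) and 0.30 (scaling) and PKM at 0.16 (limma-voom). Of the values recomputed, 2653 kept direction and side of the threshold, 263 newly passed it and 154 no longer did, and 159 turned sign while passing in neither fit, 60 of them among the Day 30 media (in 15 genes). Depth limits PHKG1, at 6 to 34 reads per library, and PHKA1, PGM2 and ALDOA among the low genes.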

Other observations

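The further lists were also counted against Day 16 on TPM, with the counts given as higher then lower for RPMI/B27, for RPMI_glcM/B27 and for HPLM/B27. The corresponding shares of all genes called were 19.9%, 21.1% and 25.4%. Of all genes, 2.08%, 3.34% and 3.0% were called higher and 17.8%, 17.8% and 22.4% lower. The hypoxia-response list (21 genes tested) had 3 and 4, 9 and 2, and 10 and 2. The list of glucose uptake, lactate export and flux switches (17 tested) had 0 and 8, 2 and 4, and 2 and 3. The other glycogen genes (20 tested) had 1 and 5, 4 and 6, and 3 and 7. The other isozymes and side steps of glycolysis (13 tested) had 0 and 3, 0 and 4, and 0 and 5. On scaled TPM the hypoxia-response list had 6 and 3, 12 and 1, and 14 and 1. Uptake, export and flux switches then had 1 and 7, 4 and 4, and 6 and 3. The other glycogen genes had 3 and 1, 7 and 6, and 5 and 5, and the other isozymes 0 and 1, 0 and 4, and 1 and 3. Of all genes, 8.62%, 13.4% and 12.9% were called higher on scaled TPM and 8.91%, 14.2% and 12.5% lower.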
